A study of Mus musculus with 71 samples.

Results

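Hippocampus from mice with a burn of the skin was compared with hippocampus from sham mice across the whole transcriptome, in 19 of the 71 libraries of the series. The members were every library of this tissue with the treatment burn (10 libraries) or sham (9 libraries). Burn mice had a full-thickness injury of 7 to 8% of the body surface on the right dorsal flank, from a brass rod 19 mm across that was heated above 90 °C and held for 10 s. Sham mice were shaved, as burn mice were, at the midline of the posterior back and not injured, so the site differed from that of the burn. Both groups were C57BL/6J mice that received isoflurane and buprenorphine (0.1 mg/kg). Paracetamol in drinking water (1 mg/mL) for 5 days is given as care after injury, with no separate statement for sham. A chlorhexidine scrub of the site is named for burn and not for sham. A further 10 hippocampal libraries, from mice whose skin was excised on a template 12 mm across, entered the fit to share its estimate of the spread. The sources used here do not give the time between injury and collection, the sex and age of the mice, or whether a mouse gave more than 1 region. Nothing in the labels says that the libraries come from separate animals, so the p-values measure the spread between libraries.

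The hippocampus is a folded part of the brain that serves memory and the control of the stress response. Its principal neurons are the granule cells of the dentate gyrus and the pyramidal cells of the CA fields, among GABAergic interneurons, glia and vessels. Skin burns release inflammatory mediators and stress hormones into the blood, and both classes of signal are known to reach the hippocampus. The deposited tissue is mixed, so fewer cells of a type and less RNA per cell cannot be told apart in any value below. Markers of the labelled tissue were present: Prox1, a transcription factor of dentate granule cells, was at 26.2 to 63.3 CPM in burn and 28.1 to 82.8 CPM in sham libraries, and Wfs1, enriched in CA1, at 123.3 to 221 CPM in burn and 107 to 238 CPM in sham libraries. CPM here is the count of a gene scaled to a library of 1 M counts (M for mega), with library sizes adjusted by the TMM method.

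The libraries came in 2 batches, with 5 burn and 4 sham libraries in batch 1 and 5 of each in batch 2. Totals in M counts ran from 7.13 to 31.2 in burn and 7.34 to 32.3 in sham libraries of batch 1, and from 35.6 to 47.8 in burn and 30.7 to 39.5 in sham libraries of batch 2. Some libraries stood apart. Neutrophil granule genes summed to 297 CPM in sham replicate 3 of batch 1, against 6.99 to 12.1 CPM in the other sham libraries and 7.08 to 10.7 CPM in burn libraries, and that library also held 0.26% of its counts in haemoglobin genes. Mitochondrial transcripts took 10.2% of counts in burn replicate 9, against 3.58 to 5.9% in the other burn libraries and 4.14 to 6.2% in sham libraries. TEC models, annotated loci that still lack experimental evidence, took 0.0498 ± 0.00509% of counts in burn and 0.0694 ± 0.0144% in sham libraries of batch 1 (SD, n = 5 and 4). In batch 2 they took 0.07 ± 0.0076% in burn and 0.0704 ± 0.00473% in sham libraries (SD, n = 5 each). The lowest TEC share among sham libraries was 0.051%, in replicate 1, and the highest among burn libraries 0.0816%, in replicate 8. Choroid plexus transcripts, which mark the neighbouring epithelium that makes cerebrospinal fluid, summed to between 169 and 9430 CPM in burn and between 151 and 7250 CPM in sham libraries.

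**Figure D1:**
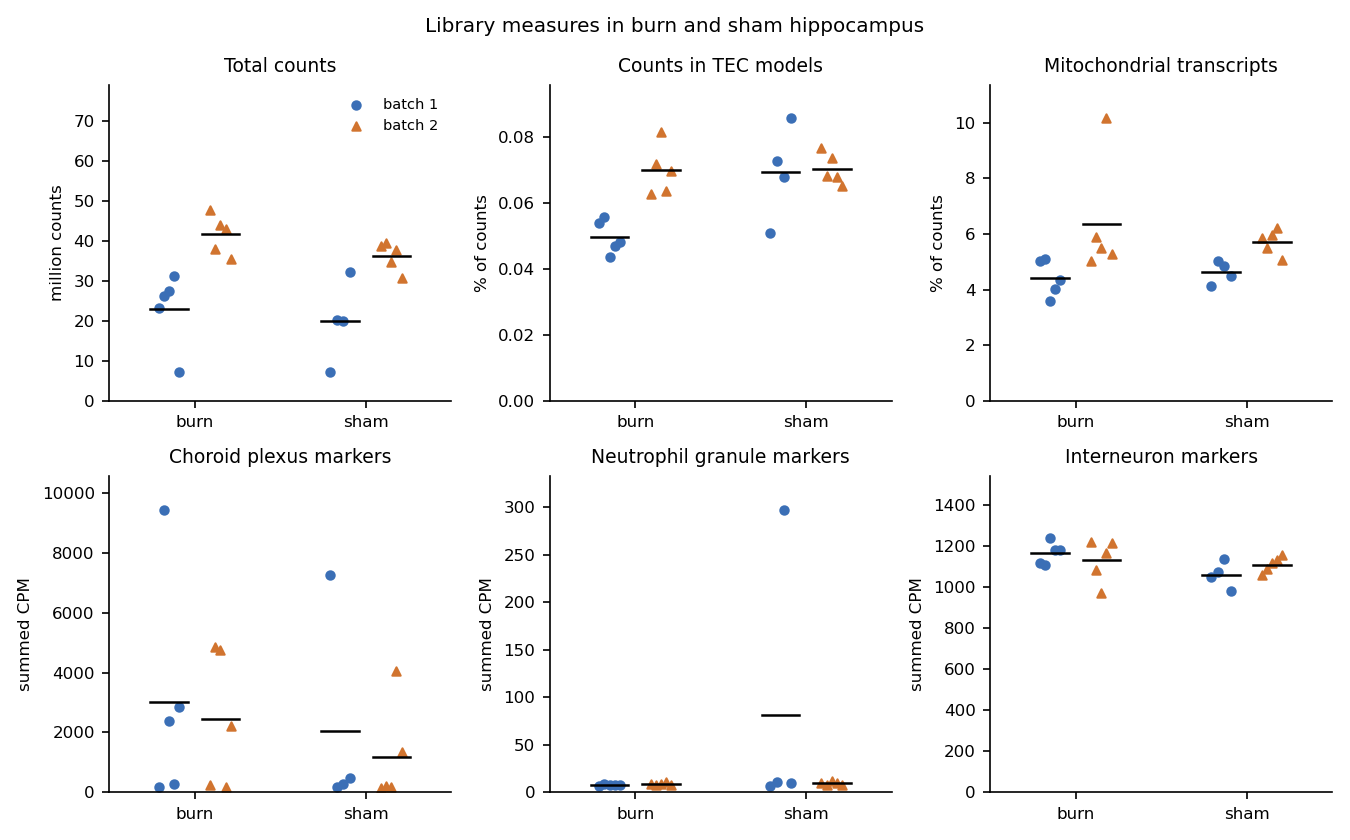
Values per library of total counts (M), shares of counts (%) and summed CPM of marker lists, with burn left of sham, batch 1 as circles, batch 2 as triangles and bars at the mean of each batch. Shares in TEC models lay below most sham values in the 5 burn libraries of batch 1, and 1 sham library held 297 CPM of neutrophil granule genes.

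The comparison called 202 of 19574 genes at an adjusted p under 0.05 (1.03%), 57 of them higher in burn (0.291%) and 145 lower (0.741%). An unadjusted p under 0.05 was reached by 3470 genes (17.7%), of which 1501 were higher (7.67%) and 1969 lower (10.1%). Most changes were small: their median size was 0.38 on the log2 scale, 50 were over 1.5-fold and 23 over 2-fold. Of the 57 rises 5 passed 1.5-fold, and of the 145 falls 45 did. The median log2 fold change over all genes tested was 0.01. Of all genes tested 10489 lay above 0 (53.6%) and 9085 below 0, values to set beside the counts in each list below. Burn and sham libraries did not overlap in CPM for 10 of all genes tested (0.0511%), and 9 of these were called: Banp, Zbtb40, Kansl3, Syvn1, Uggt1 and Car15 on the lower side, and Fbxl4, Golga5 and Slc30a1 on the higher side. With each of the 19 libraries left out in turn, 48 genes were called every time, 10 higher and 38 lower. The number of calls itself moved from 50 without sham replicate 5 to 745 without burn replicate 8. It was 30 with the TEC share as a covariate, 26 of them among the 202: Banp, Zbtb40, Creld2, Zfp46, Kansl3, Otub2, Med20, Gm49492, Ncoa5, Sdf2l1, Erf, P4ha1, ENSMUSG00000118669, Cys1, Uggt1, Manf, Wnt9a, Pdia6, Rad51ap2, Xbp1, Rasl10a, Dbp, Nfya, Hspa5, Map3k21 and Pdia4. The other called genes named below were not called with that covariate. The number was 57 with the choroid plexus sum as a covariate, all among the 202. Without sham replicate 3 it was 107, of which 99 were among the 202.

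Regulators of transcription held the 2 smallest p-values, both falls. Where 3 values of CPM are given for a group, they are those of its lowest, median and highest library. The groups overlapped in every called gene outside the 9 just listed. Banp encodes a nuclear protein that binds DNA at promoters within CpG islands (ENSMUSG00000025316, GRCm38 chromosome 8, 121949750 to 122029258). It was at 19.8, 22.5 and 30.1 CPM in burn, against 32.4, 37.0 and 43.8 CPM in sham libraries, or -0.69 on the log2 scale (SE 0.09, adjusted p = 0.000275), the smallest p of all genes tested. Every burn library lay below every sham library, and the change was -0.68 in batch 1 and -0.70 in batch 2. The BTB-domain zinc finger gene Zbtb40 (ENSMUSG00000060862, chromosome 4, 136979732 to 137048801) was at 7.21, 9.32 and 13.8 CPM in burn, against 13.9, 14.5 and 18.2 CPM in sham libraries. It fell by 0.65 (SE 0.09, adjusted p = 0.00134), again with no overlap of the groups. Zbtb40 was the called member among 40 Zbtb genes, whose median was 0.01. Kansl3, a scaffold of the NSL histone acetyltransferase complex, fell less but with little scatter. Its level was 67.1, 70.6 and 76.2 CPM in burn, against 78.1, 84.0 and 88.4 CPM in sham libraries, a fall of 0.24 (SE 0.04, adjusted p = 0.00248).

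Subunits and partners of the transcription machinery followed. Med20, a subunit of the Mediator complex that links activators to RNA polymerase II, was at 11.4, 13.3 and 15.6 CPM in burn, against 14.5, 17.4 and 19.5 CPM in sham libraries (log2 fold change -0.36, SE 0.06, adjusted p = 0.00346). It gave the 1 call among 64 Mediator and initiation genes tested, which had a median of -0.03. Ncoa5, a coregulator of nuclear receptors, fell by 0.24 (SE 0.04, adjusted p = 0.00793), with 50.7, 54.6 and 59.7 CPM in burn, against 58.8, 64.3 and 71 CPM in sham libraries. The deacetylase Hdac4 fell by 0.29 (SE 0.06, adjusted p = 0.0161), and 1 burn library, replicate 1 at 65.7 CPM, lay above all sham libraries. Hdac4 was the called member of 68 chromatin writers, erasers and remodellers, 44 of which lay below 0 (median -0.07). At an unadjusted p under 0.05 were 15 on the lower side and 2 on the higher, where 10.1% and 7.67% of all genes were.

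Lists of coregulators and of NSL and BAF subunits were drawn up after these falls had been seen. They describe which related genes moved and support nothing further. Of 36 coregulators tested 5 were called lower and 0 higher (median -0.03), and of 34 NSL and BAF subunits 3 were called lower, where 0.741% of all genes were called lower. At an unadjusted p under 0.05 were 6 NSL and BAF subunits on the lower side and 0 on the higher. Of all genes 10.1% were lower and 7.67% higher at that p. With the TEC covariate 1 gene of each list was called lower. The called BAF subunits are Dpf2 (-0.26, SE 0.05, adjusted p = 0.0146) and Dpf1 (-0.30, SE 0.07, adjusted p = 0.039), members of the complex that remodels nucleosomes. Smarcd2 of the same complex was at -0.35 (SE 0.09, adjusted p = 0.0521) and not called. Zmynd8, a reader of histone acetylation, fell by 0.25 (SE 0.05, adjusted p = 0.0274), and Nfya, the subunit of the CCAAT-binding factor NF-Y that contacts DNA, fell by 0.40 (SE 0.08, adjusted p = 0.0211). Nfya stood at -0.16 in batch 1 and -0.61 in batch 2. These 5 genes were named after their values were seen.

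Rises among regulators were fewer. Zfp46, a zinc finger gene (ENSMUSG00000051351, chromosome 4), was at 27.6, 34.5 and 41.4 CPM in burn, against 20.6, 27.6 and 30.1 CPM in sham libraries (log2 fold change 0.40, SE 0.06, adjusted p = 0.00236). In batch 2 all 5 burn libraries lay above all sham libraries, while in batch 1 the groups overlapped, and the change was 0.24 in batch 1 and 0.51 in batch 2. Of 365 Zfp genes tested, Zfp46 was called higher and Zfp811 (-0.35) and Zfp672 (-0.28) lower, with a median of 0.01. Erf, an ETS-family repressor controlled by ERK, rose by 0.29 (SE 0.05, adjusted p = 0.00906), with 43.5, 54.3 and 62.5 CPM in burn, against 37.2, 44.9 and 50.8 CPM in sham libraries. Klf11, a Kruppel-like repressor, rose by 0.46 (SE 0.11, adjusted p = 0.0374), the 1 call among 21 Kruppel-like and Sp factors, 17 of which lay above 0. The linker histone gene H1f0 rose by 0.21 (SE 0.05, adjusted p = 0.0291).

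**Figure D2:**
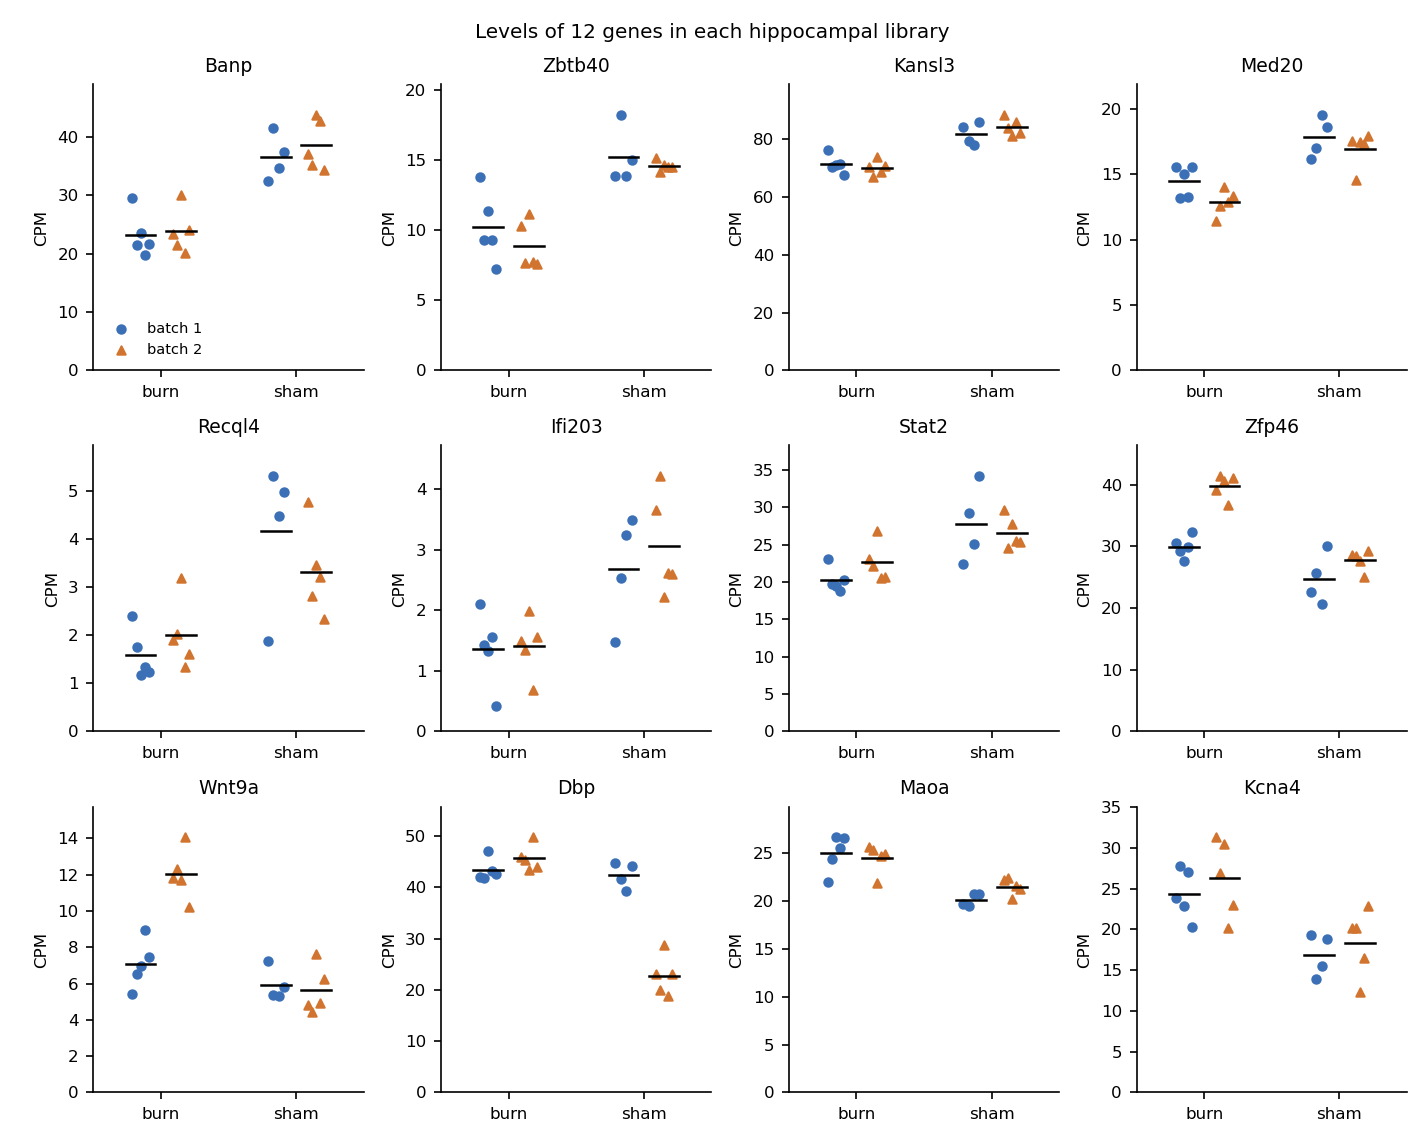
CPM of 12 genes in each of the 10 burn and 9 sham libraries, burn on the left, with batch 1 as circles, batch 2 as triangles and bars at the mean of each batch. Banp, Zbtb40 and Kansl3 show no overlap between the groups, and Dbp differs in batch 2 and not in batch 1.

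Genes of RNA processing also held falls. Splicing removes introns, the exon junction complex marks the joined exons, and nonsense-mediated decay reads that mark to destroy faulty messages. Among 76 splicing factors 2 were called lower: Prpf3 of the U4/U6 particle (-0.30, SE 0.06, adjusted p = 0.0233) and Hnrnpm (-0.21, SE 0.05, adjusted p = 0.0362). Prpf3 was at 14.9, 17.0 and 18.9 CPM in burn, against 17.4, 21.3 and 23.6 CPM in sham libraries. In this list 49 genes lay below 0 (median -0.04), beside 9085 of all 19574 genes. An unadjusted p under 0.05 was reached by 18 lower and 5 higher, where 10.1% of all genes were lower and 7.67% higher. The groups overlapped in Prpf3 and in Hnrnpm. Under the TEC covariate neither Prpf3 nor Hnrnpm was called, and the list held 1 call higher and 0 lower. A list of 22 genes of nonsense-mediated decay and the exon junction complex was drawn up after the values were seen. It had 4 called lower and 0 higher, where 0.741% of all genes were called lower, and a median of -0.11. Upf1, the helicase at the centre of the decay pathway, fell by 0.23 (SE 0.05, adjusted p = 0.0335). Acin1 (-0.42, SE 0.08, adjusted p = 0.0146) and Casc3 (-0.20, SE 0.05, adjusted p = 0.0336), which encode proteins that bind the junction, also fell. Acin1 was at 75.8, 98.0 and 128 CPM in burn, against 95.3, 131 and 142 CPM in sham libraries. Upf2 was at -0.23 (adjusted p = 0.052) and Smg1 at -0.37 (adjusted p = 0.11), both not called. Upf1, Acin1 and Casc3 were not called under the TEC covariate.

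The secretory pathway folds, glycosylates and checks proteins in the endoplasmic reticulum (ER), and the unfolded protein response adjusts its chaperones through factors such as Xbp1. The ER chaperones held 5 called falls among 20 genes tested and 0 called rises: Creld2, Sdf2l1, Manf, Hspa5 and Dnajc1. Of all genes 0.741% were called lower. At an unadjusted p under 0.05 were 9 of the list lower and 2 higher, where 10.1% and 7.67% of all genes were. The list median was -0.13 beside 0.01 over all genes, with -0.064 in batch 1 and -0.155 in batch 2. Hspa5 averaged 339.6 CPM in burn and 370.6 CPM in sham libraries of batch 1, and 195.9 CPM and 312.0 CPM in batch 2. Dnajc1, a J-domain partner of BiP, was at 14.4, 17.2 and 21.4 CPM in burn, against 18.2, 21.8 and 24.7 CPM in sham libraries (-0.29, SE 0.07, adjusted p = 0.0399). Uggt1, the glucosyltransferase that returns misfolded glycoproteins for another round (ENSMUSG00000037470, chromosome 1), was at 42.5, 46.7 and 50.4 CPM in burn, against 51.0, 53.0 and 57.5 CPM in sham libraries, a fall of 0.21 (SE 0.04, adjusted p = 0.00906). Syvn1, the ubiquitin ligase of ER-associated degradation, was at 47.8, 51.3 and 56.3 CPM in burn, against 56.8, 60.6 and 65.8 CPM in sham libraries, a fall of 0.24 (SE 0.05, adjusted p = 0.00906). In both, no burn library reached the lowest sham library.

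Uggt1 and Syvn1 were each the called gene of a list, among 32 translocon and glycosylation genes (median 0.01) and 22 degradation genes (median 0.02). The protein disulfide isomerases gave 2 called falls of 20, Pdia6 and Pdia4 (median 0.00). Pdia4 averaged 46.2 CPM in burn and 50.85 CPM in sham libraries of batch 1, and 31.3 CPM and 45.3 CPM in batch 2. Pdia6 averaged 140.8 CPM and 155.8 CPM in batch 1, and 96.25 CPM and 132.4 CPM in batch 2. Coat proteins of transport between ER and Golgi gave 0 calls of 32, with 3 higher and 3 lower at an unadjusted p under 0.05. Proteasome subunits gave 0 calls of 48, with 0 higher and 1 lower at that p, and lysosome and autophagy genes 0 of 30, with 3 higher and 1 lower. Outside the ER, Dnajb5, a cytosolic J-domain cochaperone of neurons, fell by 0.39 (SE 0.08, adjusted p = 0.0233) with 116, 147 and 194 CPM in burn, against 166, 198 and 227 CPM in sham libraries. It gave the 1 call among 30 cytosolic and mitochondrial heat shock proteins, of which 23 lay below 0. Golga5, a golgin of Golgi vesicles (0.21), and Mgat2, which builds complex N-glycans in the Golgi (0.29), rose, and both were named after their values were seen.

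Promoters of 4 lower genes are shown because they hold the ER stress response element, CCAAT and CCACG with 9 bases between them, to which NF-Y and ATF6 or XBP1 are known to bind in mammals. The sequences are those of RefSeq on GRCm38.p6, 250 bases before to 50 after the start of the gene on its own strand, with the match in capitals. Creld2 lies at chr15:88819396-88819695, Hspa5 at chr2:34771840-34772139, Pdia6 at chr12:17266339-17266638 and Syvn1 at chr19:6046326-6046625, all on the plus strand. The matches begin at -126, -65, -98 and -44 relative to the gene start, and that of Creld2 reads in the reverse orientation.
Creld2: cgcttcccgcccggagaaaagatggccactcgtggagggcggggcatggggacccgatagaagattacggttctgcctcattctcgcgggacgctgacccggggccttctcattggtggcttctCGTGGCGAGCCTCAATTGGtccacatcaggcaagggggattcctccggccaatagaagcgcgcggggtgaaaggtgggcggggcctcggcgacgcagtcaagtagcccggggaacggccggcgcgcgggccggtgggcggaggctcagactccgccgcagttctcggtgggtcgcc
Hspa5: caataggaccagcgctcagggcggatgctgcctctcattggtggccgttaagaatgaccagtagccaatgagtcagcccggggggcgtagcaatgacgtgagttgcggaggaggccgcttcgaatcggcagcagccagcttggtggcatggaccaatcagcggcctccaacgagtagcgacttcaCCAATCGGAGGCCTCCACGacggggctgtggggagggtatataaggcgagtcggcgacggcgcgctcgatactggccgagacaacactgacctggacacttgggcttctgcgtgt
Pdia6: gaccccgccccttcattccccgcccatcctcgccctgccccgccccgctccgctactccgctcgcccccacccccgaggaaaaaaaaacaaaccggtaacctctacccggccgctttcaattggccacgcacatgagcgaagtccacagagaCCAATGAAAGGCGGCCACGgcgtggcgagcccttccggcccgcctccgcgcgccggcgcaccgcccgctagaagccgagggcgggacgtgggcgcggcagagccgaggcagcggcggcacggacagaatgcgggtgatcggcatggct
Syvn1: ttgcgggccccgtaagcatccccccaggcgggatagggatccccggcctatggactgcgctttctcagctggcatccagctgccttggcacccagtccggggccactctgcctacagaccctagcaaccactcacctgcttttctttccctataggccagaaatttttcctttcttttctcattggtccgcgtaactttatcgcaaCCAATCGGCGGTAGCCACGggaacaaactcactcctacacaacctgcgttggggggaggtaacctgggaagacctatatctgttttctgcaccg
Searched on both strands, these letters were found in 4 of the 108 lower genes with a promoter in the table (3.7%), in 0 of the 43 higher genes, in 21 of 12646 genes tested (0.166%) and in 39 of 32851 promoters (0.119%). The element contains the CCAAT box that NF-Y reads. A match is a description of the letters and not of binding.

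Of the 4 lists of immune genes, 3 held called falls and none a called rise. With the TEC covariate none of the 4 held a called fall, and without sham replicate 3, the library with neutrophil transcripts, the interferon list held 3 and the others 0. Interferon receptors act through a complex with Stat2 and Irf9, which binds interferon-stimulated response elements. Stat2 was at 18.7, 20.6 and 26.8 CPM in burn, against 22.3, 25.5 and 34.1 CPM in sham libraries, a fall of 0.34 (SE 0.08, adjusted p = 0.0336). Irf9 was at 4.95, 6.48 and 8.58 CPM in burn, against 5.79, 9.04 and 11.5 CPM in sham libraries, a fall of 0.51 (SE 0.12, adjusted p = 0.0348). Ifi203, of the interferon-inducible Ifi200 family of nuclear proteins, was at 0.416, 1.46 and 2.1 CPM in burn, against 1.48, 2.62 and 4.21 CPM in sham libraries. Its fall of 1.04 (SE 0.21, adjusted p = 0.0146) was similar in both batches, at -0.95 and -1.11. These were the 3 called of 44 interferon genes tested, with 9 lower and 0 higher at an unadjusted p under 0.05 and a median of -0.07. With the TEC covariate Stat2, Irf9 and Ifi203 were not called (adjusted p from 0.111 to 0.274). Irf3, which starts the interferon response, was at -0.42 and missed the call (adjusted p = 0.0561). Of 6 Ifi200 genes tested, a list made after their values were seen, Ifi203 and Mndal (-0.90, adjusted p = 0.0293) were called, and the median was -0.88. Neither was called with the TEC covariate, where the median was -0.70. Members of this family are near-identical copies in part, so reads could be split between them. Ifi203 and Mndal also overlap by position on the same strand, so their calls may not be independent. Dhx58, a cytosolic RNA sensor of the interferon system named after its values were seen, fell by 0.71 (SE 0.16, adjusted p = 0.0291).

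The interferon-stimulated element was searched through its core, GAAA and GAAA with 2 bases between them, on both strands. It was found in 7 of 108 lower genes (6.48%), in 2 of 43 higher genes (4.65%), in 463 of 12646 genes tested (3.66%) and in 1131 of 32851 promoters (3.44%). Promoters of 3 of the lower genes are shown because these genes belong to the interferon system itself. Ifi203 lies at chr1:173942443-173942742 and Mndal at chr1:173879909-173880208, both on the minus strand, and Stat2 at chr10:128270248-128270547 on the plus strand, with matches that begin at -35, -54 and -222 relative to the gene start.
Ifi203: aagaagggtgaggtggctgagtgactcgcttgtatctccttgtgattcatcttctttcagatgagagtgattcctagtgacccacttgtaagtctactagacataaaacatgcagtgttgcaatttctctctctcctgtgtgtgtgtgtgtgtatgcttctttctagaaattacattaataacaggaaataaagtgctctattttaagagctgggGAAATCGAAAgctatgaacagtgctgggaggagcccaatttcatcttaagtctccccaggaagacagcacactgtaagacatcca
Mndal: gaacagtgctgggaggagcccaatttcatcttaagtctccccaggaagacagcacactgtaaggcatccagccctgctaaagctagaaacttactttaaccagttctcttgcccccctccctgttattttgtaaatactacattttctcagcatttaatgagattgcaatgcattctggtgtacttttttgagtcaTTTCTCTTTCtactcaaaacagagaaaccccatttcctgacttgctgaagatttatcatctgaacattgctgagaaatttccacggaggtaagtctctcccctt
Stat2: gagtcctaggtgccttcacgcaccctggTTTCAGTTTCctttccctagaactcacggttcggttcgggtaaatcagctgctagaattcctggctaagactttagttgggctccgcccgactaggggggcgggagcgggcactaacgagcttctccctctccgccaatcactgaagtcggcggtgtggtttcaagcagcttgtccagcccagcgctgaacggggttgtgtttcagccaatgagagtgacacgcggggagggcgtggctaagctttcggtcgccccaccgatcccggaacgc
The capitals mark the core, which reads in the reverse orientation in Mndal and Stat2. Ifi203 and Mndal have more than 1 promoter in the table, and the one with the match is shown.

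Genes of myeloid cells were among the largest falls, and they moved with particular libraries. Dok3, an adaptor that restrains immune receptor signalling, was at 3.51, 7.47 and 15.0 CPM in burn, against 6.19, 19.8 and 26.5 CPM in sham libraries (-1.26, SE 0.26, adjusted p = 0.0198). The metalloprotease Adam8 was at 0.789, 2.62 and 7.2 CPM in burn, against 2.29, 7.28 and 11.8 CPM in sham libraries (-1.34, SE 0.31, adjusted p = 0.0348). Cfp, the complement factor properdin, was at 2.19, 6.31 and 13.1 CPM in burn, against 3.77, 16.5 and 19.7 CPM in sham libraries (-1.12, SE 0.29, adjusted p = 0.0497). In all 3 genes the highest burn value was that of replicate 8 and the lowest sham value that of replicate 1, which are the libraries with the highest TEC share in burn and the lowest in sham. The same libraries held these extremes for the called falls Recql4, Traip, Crip3 and Gm20219. This profile was therefore not particular to genes of myeloid cells. In batch 1 the changes of Dok3, Adam8 and Cfp were -1.88, -2.34 and -2.02, and in batch 2 -0.84, -0.68 and -0.52. None of the 3 was called with the TEC covariate (adjusted p from 0.0954 to 0.319), and the part of that share in these falls was not tested further. Dok3 was called with each library left out, and without sham replicate 3, the one with neutrophil transcripts, it stood at -1.24 (adjusted p = 0.0327), while Adam8 stood at -1.33 (adjusted p = 0.0516) and Cfp at -1.07 (adjusted p = 0.0778). The kinase gene Ikbkb, which activates NF-kB, fell by 0.28 (SE 0.07, adjusted p = 0.0432), the 1 call among 34 genes of that pathway, whose median was -0.03. Microglial markers had 0 calls of 18 tested, with 0 higher and 3 lower at an unadjusted p under 0.05 and a median of -0.07, and border-associated macrophage markers 0 calls of 11, with 10 below 0 and a median of -0.24.

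Genes of DNA repair and cell division were read next, since new neurons form in the dentate gyrus. Recql4, a RecQ helicase of DNA replication and repair, was at 1.18, 1.69 and 3.2 CPM in burn, against 1.88, 3.47 and 5.31 CPM in sham libraries. It fell by 1.02 (SE 0.21, adjusted p = 0.0146), by 1.44 in batch 1 and 0.72 in batch 2, and with the TEC covariate stood at -0.60 (adjusted p = 0.0629), not a call. It shares its position with Mfsd3 on the other strand, and the strand setting of the counts is not given in the sources used here. Recql4 was the called gene of 69 repair genes, whose median was 0.01, with -0.08 in batch 1 and 0.01 in batch 2. At an unadjusted p under 0.05 were 16 lower and 6 higher, where 10.1% and 7.67% of all genes were. The neurogenesis and proliferation markers had 0 calls of 15, with 1 higher and 2 lower at that p, and a median of -0.06. Named after their values were seen, Traip, a ubiquitin ligase of stalled replication forks (-0.81), Numa1, which organises spindle poles (-0.21), and Zw10, a checkpoint protein of the kinetochore (-0.22), were lower in burn as calls. Rad51ap2 and Tipin, named in the same way, were called higher. Rad51ap2 rose by 0.86 (SE 0.17, adjusted p = 0.0146), was low in all libraries and kept its call with the TEC covariate. Tipin averaged 9.61 CPM in burn and 8.06 CPM in sham libraries of batch 1, and 9.85 CPM and 6.99 CPM in batch 2.

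Clock output moved in opposite directions in its activator and its repressor. Dbp and Nfil3 bind the same promoter element, Dbp as an activator and Nfil3 as a repressor. Dbp was at 41.8, 42.6 and 47.0 CPM in burn and 39.3, 42.8 and 44.8 CPM in sham libraries of batch 1. In batch 2 it was at 43.4, 45.3 and 49.8 CPM in burn, against 18.8, 23 and 28.7 CPM in sham libraries. The 2 groups overlapped in batch 1 and were far apart in batch 2, where the low values were those of sham. The joint log2 fold change was 0.56 (SE 0.11, adjusted p = 0.0146), and the difference between batches was 0.98 (SE 0.14, adjusted p = 0.00199). Nfil3 fell by 0.42 (SE 0.10, adjusted p = 0.0335), with 9.29, 11.1 and 13.5 CPM in burn, against 11.6, 15.7 and 18.4 CPM in sham libraries, with a change of -0.19 in batch 1 and -0.60 in batch 2. They were the called members of 22 clock genes (median 0.02). The library names hold a running number that goes through whole treatments, so within a batch treatment cannot be told apart from this number. By that number sham came before burn in batch 1 and after burn in batch 2. Nfil3 was lower in burn under both orders, at -0.19 and -0.60. No label ties the number to a time of day or to an order of collection. The part of such an order in these changes was not tested. Dbp shares its position with Sphk2 on the other strand.

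Fosb, an AP-1 factor that accumulates with neuronal activity, was at 11.2, 13.7 and 16.1 CPM in burn and 14.2, 14.7 and 15.9 CPM in sham libraries of batch 1, and at 10.7, 13.6 and 17.5 CPM in burn, against 22.4, 26.5 and 31.4 CPM in sham libraries of batch 2. The groups overlapped in batch 1 and lay apart in batch 2, with a joint fall of 0.60 (SE 0.15, adjusted p = 0.039), -0.14 in batch 1 and -0.91 in batch 2. Of 25 immediate early genes tested 1 was called and 20 lay below 0, beside 9085 of all 19574 genes. An unadjusted p under 0.05 was reached by 6, all lower, where 10.1% of all genes were lower. The median of the list was 0.05 in batch 1 and -0.26 in batch 2. Homer1, a scaffold gene with an activity-induced short form, was at -0.01 in batch 1 and -0.86 in batch 2 and was not called (adjusted p = 0.0658).

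Among neuronal channels and receptors, single genes of large families moved. Kcna4, which encodes the A-type potassium channel Kv1.4 of axons, was at 20.1, 25.4 and 31.3 CPM in burn, against 12.3, 18.8 and 22.9 CPM in sham libraries, a rise of 0.54 (SE 0.12, adjusted p = 0.0293). The rise was 0.53 in batch 1 and 0.52 in batch 2. It gave the 1 call among 83 potassium channel genes, whose median was 0.02. Cacna1g, the T-type calcium channel Cav3.1, fell by 0.27 (SE 0.06, adjusted p = 0.0292), with 50.2, 59.3 and 68.4 CPM in burn, against 64.2, 67.5 and 81.0 CPM in sham libraries, the 1 call among 35 sodium and calcium channels. Htr7, a serotonin receptor coupled to cAMP, rose by 0.41 (SE 0.10, adjusted p = 0.0357), with 8.02, 11.3 and 14.8 CPM in burn, against 6.58, 8.45 and 10.0 CPM in sham libraries. Maoa, which breaks down serotonin and noradrenaline, rose by 0.25 (SE 0.06, adjusted p = 0.0336), with 21.9, 25.1 and 26.7 CPM in burn, against 19.5, 20.7 and 22.4 CPM in sham libraries. These 2 were the called of 41 monoamine and cholinergic genes tested, 29 of which lay above 0, beside 53.6% of all genes. The beta-1 adrenergic receptor Adrb1 was at 0.27 (adjusted p = 0.0662) and not called.

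No gene of inhibitory transmission was called. Of 22 GABA receptor and synthesis genes tested 20 lay above 0, and 11 were higher and 0 lower at an unadjusted p under 0.05, where 7.67% of all genes were higher. Their median was 0.16, with 0.22 in batch 1 and 0.04 in batch 2, and 0.08 with the TEC covariate. The receptor subunits Gabrg1, at 0.32 (SE 0.11, adjusted p = 0.123), and Gabrq, at 1.03 (SE 0.35, adjusted p = 0.124), had the smallest p. Gabrq was low throughout, at 0.402 to 1.58 CPM in burn and 0 to 0.882 CPM in sham libraries. Interneuron markers lay above 0 in 11 of 14, with 0 called. Their median was 0.12, with 0.16 in batch 1 and 0.04 in batch 2, and 0.03 with the TEC covariate. They summed to between 969 and 1240 CPM in burn and between 980 and 1150 CPM in sham libraries. Glutamate receptor genes gave 0 calls of 24, with 4 higher and 1 lower at an unadjusted p under 0.05 (median 0.02). At the postsynapse, Baiap2, which bends the membrane of dendritic spines, fell by 0.35 (SE 0.06, adjusted p = 0.00906), with 216, 252 and 304 CPM in burn, against 261, 333 and 374 CPM in sham libraries. It gave the 1 call among 30 scaffold genes (median -0.01). The scaffold Caskin1 (-0.23) and the formin Fmnl1 (-0.37), which builds actin filaments, also fell, and presynaptic release genes gave 0 calls of 30, with 2 higher and 2 lower at that p.

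Clustered protocadherins, cell-surface proteins whose combinations identify single neurons, lay above 0 in all 53 genes tested, beside 53.6% of all genes, with 0 called and 9 at an unadjusted p under 0.05. Their median was 0.22, with 0.39 in batch 1 and 0.04 in batch 2, and 0.10 with the TEC covariate. The genes with the smallest p were Pcdhb14 (0.39, SE 0.12, adjusted p = 0.107) and Pcdhgc4 (0.37, SE 0.12, adjusted p = 0.121). The alpha and gamma members share constant exons, so their counts are not independent. Collagen chains had a median of -0.61 in batch 1 and 0.00 in batch 2, with 31 of 43 below 0 and 0 called. An unadjusted p under 0.05 was reached by 13, all lower, where 10.1% of all genes were lower. With the TEC covariate the median of the collagen chains was 0.00. Col4a1, a chain of the basement membrane of vessels, was at -0.97 in batch 1 and -0.19 in batch 2 (adjusted p = 0.0826), not a call. Enzymes that hydroxylate collagen did hold calls. P4ha1, the prolyl hydroxylase subunit, was at 38.7, 53.5 and 59.8 CPM in burn, against 55.1, 61.1 and 68.1 CPM in sham libraries, a fall of 0.33 (SE 0.06, adjusted p = 0.00906), with -0.19 in batch 1 and -0.45 in batch 2. P4ha1 and Plod3, a lysyl hydroxylase (-0.28, adjusted p = 0.0362), were the 2 called of 19 such enzymes, a list made after the values were seen. Of all genes 0.741% were called lower. In the list 7 genes lay above 0 and 12 below (median -0.03). With the TEC covariate 1 of the list was called lower, and 1 without sham replicate 3.

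Signalling genes gave some of the larger rises. Wnt9a, a secreted ligand of the Wnt pathway, was at 5.45, 6.99 and 8.94 CPM in burn and 5.29, 5.58 and 7.27 CPM in sham libraries of batch 1. In batch 2 it was at 10.2, 11.8 and 14.1 CPM in burn, against 4.44, 4.95 and 7.65 CPM in sham libraries. Its joint change was 0.73 (SE 0.14, adjusted p = 0.0121), 0.26 in batch 1 and 1.09 in batch 2, and it gave the 1 call among 51 Wnt genes, 33 of them above 0 (median 0.14, and 0.01 with the TEC covariate). Dgkk, which phosphorylates diacylglycerol, was at 0.626, 1.27 and 2.94 CPM in burn, against 0.473, 0.683 and 0.989 CPM in sham libraries (1.08, SE 0.26, adjusted p = 0.0374). Plch2, a neuronal phospholipase C that makes diacylglycerol, fell by 0.29 (SE 0.07, adjusted p = 0.0432), and these 2 were the called of 34 genes of this branch. Map3k21, a mixed-lineage kinase, rose by 0.55 (SE 0.12, adjusted p = 0.0244), the 1 call among 69 in MAP kinase cascades (median 0.00). Prkab2, a subunit of the energy sensor AMPK named after its values were seen, fell by 0.43 (SE 0.08, adjusted p = 0.00906), and Nim1k, an AMPK-related kinase, rose by 0.29 (SE 0.06, adjusted p = 0.0161). Otub2, a deubiquitinase, was at 30.9, 38.7 and 50.7 CPM in burn, against 49.2, 54.0 and 57.4 CPM in sham libraries, a fall of 0.46 (SE 0.07, adjusted p = 0.0028).

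Metabolic genes were called one at a time. Heph, a ferroxidase of iron export, was at 6.04, 8.85 and 13.9 CPM in burn, against 3.62, 5.88 and 6.73 CPM in sham libraries, a rise of 0.61 (SE 0.13, adjusted p = 0.0211), the 1 call among 22 iron genes. Insig1, the ER anchor that restrains sterol synthesis, rose by 0.25 (SE 0.05, adjusted p = 0.0217), the 1 call among 27 in cholesterol synthesis, whose median was 0.00. Hsd17b12, a reductase of fatty acid elongation, rose by 0.22 (SE 0.05, adjusted p = 0.048), and Plpp6, a lipid phosphatase, by 0.24 (SE 0.05, adjusted p = 0.0211). Slc30a1, the zinc exporter of the plasma membrane, was at 25.5, 27.1 and 31.1 CPM in burn, against 18.1, 23.2 and 25.3 CPM in sham libraries, with no overlap and a rise of 0.33 (SE 0.08, adjusted p = 0.0481). Trmt9b, related to tRNA methyltransferases, rose by 0.51 (SE 0.11, adjusted p = 0.0274), the called gene of 71 in tRNA and rRNA processing. The large biosynthetic families showed no call. Cytosolic ribosomal proteins lay above 0 in 66 of 81 with 0 at an unadjusted p under 0.05, and nuclear-encoded subunits of oxidative phosphorylation in 53 of 80 with 6 higher and 0 lower at that p. Their medians were 0.03 and 0.02. The 13 mitochondrially encoded genes had a median of 0.11, with 0 at that p, and burn replicate 9 with its share of 10.2% is among these libraries.

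**Figure D3:**
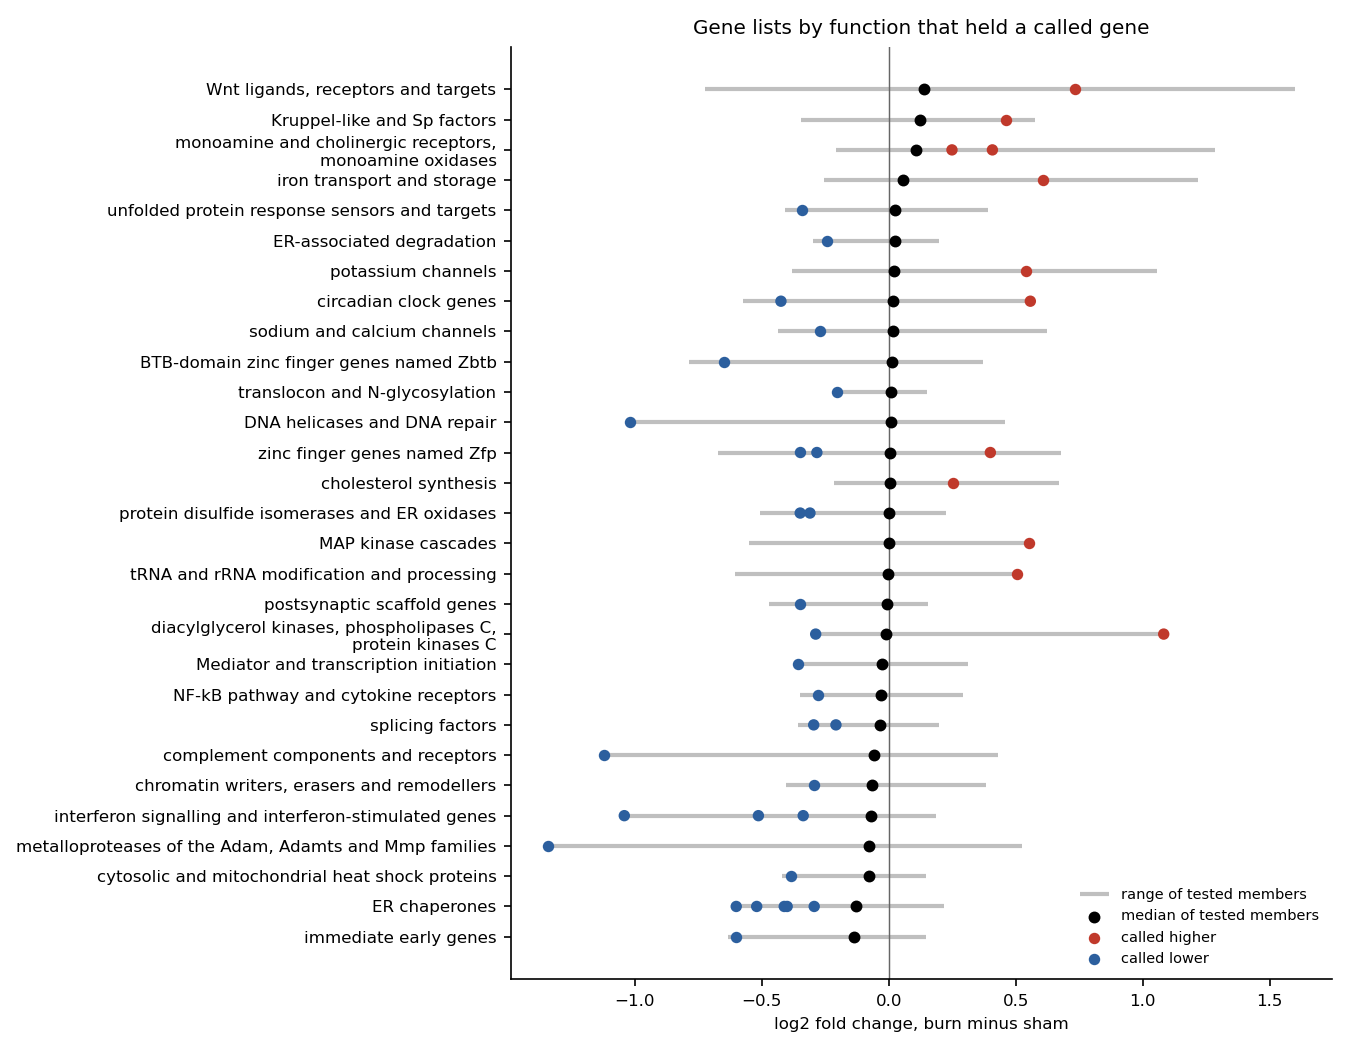
Log2 fold change, burn minus sham, of the 29 functional gene lists that held a called gene. Grey lines span the tested members, black points mark the median, and coloured points the genes called higher (red) or lower (blue). Medians lay near 0, most lists held 1 called gene, and with the TEC covariate 11 of the functional lists held a call.

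Of 51 functional lists 29 held a called gene and 22 held none, while with the TEC covariate 11 held one, and none of the 23 cell type lists held one. The counts of cell type markers stand beside 53.6% of all genes above 0. Astrocyte genes lay above 0 in 15 of 16 (median 0.11), with Sox9, a transcription factor of astrocytes, at 0.31 (SE 0.10, adjusted p = 0.124). Their summed levels were 5540 to 7840 CPM in burn and 5310 to 6780 CPM in sham libraries. CA1 markers lay above 0 in 8 of 10 (median 0.23) and dentate granule markers below 0 in 10 of 12 (median -0.19). Their sums overlapped: 835 to 1100 CPM in burn and 796 to 1080 CPM in sham libraries for CA1, and 470 to 736 CPM in burn and 517 to 797 CPM in sham libraries for the dentate. Markers of tissue outside the hippocampus moved by similar amounts. Those of thalamus, habenula and septum lay above 0 in 11 of 13 (median 0.20, and -0.10 with the TEC covariate). Striatal markers lay above 0 in 8 of 11 (median 0.23), and cortical and subicular markers in 8 of 14 (median 0.03). Choroid plexus markers lay above 0 in 16 of 16 (median 0.88), with 0 at an unadjusted p under 0.05. Without the 4 hippocampal libraries under 10 M counts their median was 2.00. Ttr, the carrier of thyroid hormone made there, ranged from 17.8 to 6376 CPM in burn and from 23.3 to 4988 CPM in sham libraries. Beyond the choroid plexus covariate given above, the part of these shares in the calls was not tested.

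The 202 called genes had the same sign in both batches, which the joint fit partly fixes. The change was larger in batch 1 for 143 of them, with a median size of 0.42 there and 0.32 in batch 2. Among all genes the change was also larger in batch 1 for 13262 of 19574, with median sizes of 0.17 and 0.09. Fitted alone, batch 1 called 1363 genes (6.96%) and batch 2 called 27 (0.138%), of which 120 and 21 were among the 202. TEC models had a median change of -0.67 in batch 1 and -0.02 in batch 2, and their part in the larger falls of batch 1 was not tested beyond the covariate. A burn-by-batch interaction was called for 9 genes (0.046%), Dbp and 8 others with no joint call. The circadian output gene Usp2 is 1 of them, at -0.06 in batch 1 and 0.49 in batch 2 (difference 0.54, SE 0.09, adjusted p = 0.0107). The differences between batches given above for Fosb, Wnt9a, Nfil3, Nfya, Dok3, Adam8 and Cfp were not called (adjusted p from 0.0933 to 0.288).

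**Figure D4:**
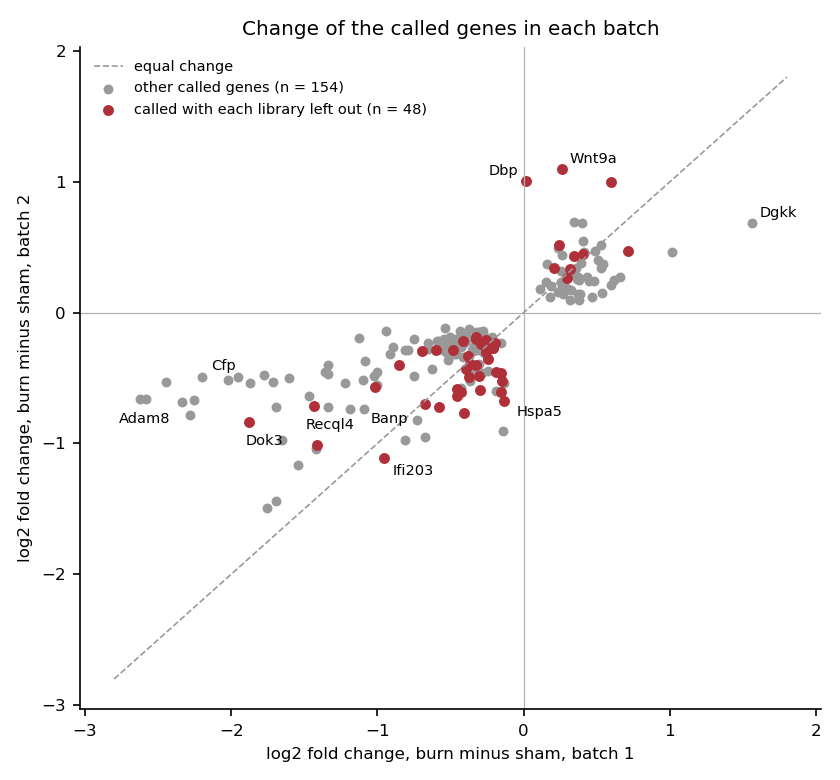
Log2 fold change, burn minus sham, of the 202 called genes in batch 1 (x axis) and batch 2 (y axis), with the 48 genes called with each library left out in red. Large falls such as Adam8 and Cfp lie further from 0 in batch 1, Banp and Ifi203 near the line of equal change, and Dbp and Wnt9a further from 0 in batch 2.

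The same genes were read in the frontal cortex (18 burn and sham libraries) and the piriform cortex (10), whose libraries took no part in the calls. In the frontal cortex 201 of the 202 were tested and 182 had the same sign, beside 61.2% of all genes tested in both regions. There 59 of 21077 genes were called (0.28%), and 14 were called in both regions with the same sign, 7 higher and 7 lower, which is 6.93% of the hippocampal and 23.7% of the frontal calls. Banp (-0.49), Zbtb40 (-0.49), Zfp46 (0.36), Wnt9a (0.74), Map3k21 (1.13), Mansc1 (0.58) and Omg (0.36), a myelin glycoprotein, are among them, with adjusted p from 0.00632 to 0.0495. The ER genes Creld2, Sdf2l1, Xbp1, Hspa5 and Pdia4 lay between -0.54 and -0.32. Armcx5 and Tox, an HMG-box factor, rose in both regions. Kansl3, Med20, Stat2 and Recql4 were not called there. Leaving out the frontal libraries whose title names another treatment than their label gave 32 calls, 9 of them shared. In the piriform cortex 0 of 21004 genes were called by edgeR (0.0%), with 896 at an unadjusted p under 0.05, and 130 of the 202 had the same sign, beside 54.2% of all genes. The title of 1 piriform library names another treatment than its label, and without it 0 genes were called and 127 of the 202 had the same sign. The titles of the piriform libraries also name the frontal cortex, and their region was taken from the tissue label and the source name. Whether regions share animals is not given, so these counts are not independent where they do.

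**Figure D5:**
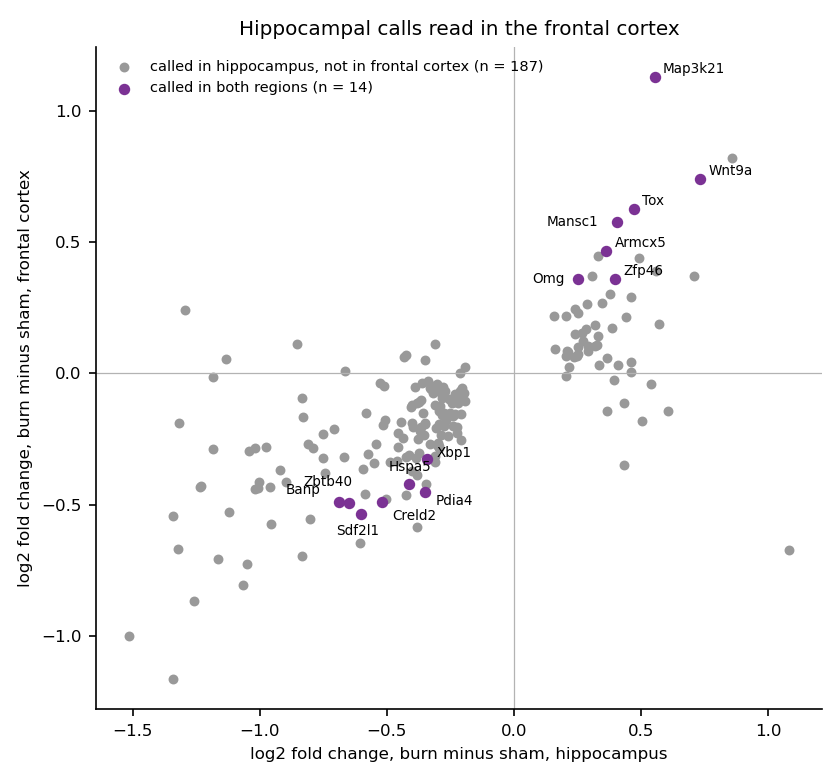
Log2 fold change, burn minus sham, in hippocampus (x axis) and frontal cortex (y axis) for the 201 hippocampal calls tested in both, with the 14 called in both regions in purple and named. Those 14 lie in the quadrants of equal sign, 7 on each side.

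Excision against sham in the hippocampus called 0 of 19574 genes (0.0%) by edgeR, with 727 (3.71%) at an unadjusted p under 0.05. The 202 genes had 0 calls there, and their median change there was 0.10 for those higher and -0.09 for those lower after burn. In the lists without a call, the median of clustered protocadherins was 0.22 after burn and 0.19 after excision, and that of GABA receptor and synthesis genes 0.16 after burn and 0.10 after excision. The excision and burn comparisons share their sham libraries, so the sign of one is not independent of the other. Banp averaged 23.5 ± 3.61 CPM after burn and 36.1 ± 5.37 CPM after excision (SD, n = 10 each), against 37.7 ± 4.03 CPM in sham libraries (SD, n = 9).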

How the data were processed

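RNA of mixed hippocampal tissue was sequenced as single reads. The authors deposited 1 table of whole-number counts per gene for 71 libraries. FastQC 0.11.3, fastp, STAR, DESeq2 1.24.0 and GRCm38 are named in the submitters' processing notes. The sources used here do not name the counter, its annotation release or its strand mode. Of 55416 identifiers 52083 carried a symbol, and the rest held 0.847% of counts.

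Genes were filtered with filterByExpr, normalised by TMM and tested with the quasi-likelihood F test of edgeR 4.0.16 in R 4.3.3, with treatment and batch as terms over the 29 hippocampal libraries. Calls have a Benjamini-Hochberg adjusted p under 0.05, with no fold threshold. All adjusted p-values and those for batches, interaction, excision and other regions come from edgeR in this way. The SE is the size of the log2 fold change divided by the square root of F. DESeq2 1.42.0 and sva 3.50.0 gave alternatives, and the procedure was tested on simulated data. Figures were drawn with Python 3.11.15 and matplotlib 3.10.9.

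The members, the gene lists and the tests were chosen with earlier results of these data known, and 5 of the lists were added after seeing the values. Named genes are called genes of at least 1 CPM on average with the same sign in both batches: in each direction the 10 with the smallest p, the 10 with the largest change and the 8 with the highest CPM, and up to 5 called members of each list. In a list with no call the 2 members with the smallest p may be given. Every other gene in the text was chosen after its values were seen. Of the 72 genes the rule names, 12 overlap a coding gene on the other strand by position: Syvn1, Manf, Pdia6, Recql4, Dbp, Heph, Plpp6, Omg, Ssc5d, Nap1l5, Dnajc1 and Caskin1. Some genes are not reported here.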

Additional observations from a re-analysis of the deposited data

Results flagged for a closer look

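Among the named genes, 14 values stood apart from the rest of their group by Dixon's test. In burn replicate 8 the highest burn values were found for Dok3 (15.0 CPM), Adam8 (7.2 CPM), Crip3 (2.5 CPM), 4933432I09Rik (1.83 CPM), Ikbkb (39.0 CPM) and Gm20219 (2.53 CPM). All 6 genes were lower in burn, and that library holds the highest TEC share of the burn group. Other burn values that stood apart were the highest of Hdac4 in replicate 1 (65.7 CPM), Heph in replicate 4 (13.9 CPM) and Efhc2 in replicate 2 (2.66 CPM). In sham libraries they were the highest of Zbtb40 in replicate 2 (18.2 CPM), of Plpp6 (65.9 CPM) and Nap1l5 (291.0 CPM) in replicate 9 and of Hsd17b12 in replicate 1 (79.5 CPM), and the lowest of Baiap2 in replicate 1 (261.0 CPM).

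Measures of whole libraries stood apart as well. Burn replicate 9 had the highest mitochondrial share (10.2%) and the lowest TMM factor (0.884) of its group, burn replicate 2 the highest choroid plexus sum (9430.0 CPM) and burn replicate 4 the highest sum of thalamus, habenula and septum markers (601.0 CPM). Sham replicate 3 had the highest haemoglobin share (0.26%), erythroid sum (3170.0 CPM), neutrophil granule sum (297 CPM) and sum of CA2 and CA3 markers (2140.0 CPM). Of 198 groups of values examined 22 held such a value, and chance flags about 1 in 20.

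The effect of burn differed between batches, by the interaction test, for 9 genes, given here as the log2 change in batch 2 minus that in batch 1. The differences were 0.976 for Dbp and 0.544 for Usp2, both of the clock output. They were 2.46 for Lncppara, 2.14 for Ccna2, a cyclin of S phase, 1.61 for 9530062K07Rik, 1.73 for Tbx2, 2.61 for Gm42849, 0.417 for Zfp362 and 1.82 for Cd160.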

How the results depend on the processing

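The 202 calls, 57 higher and 145 lower, depended on the fit. The DESeq2 Wald test called 670 genes (189 higher, 481 lower) and edgeR without a count filter 123 (19 and 104). Burn and sham libraries alone gave 73 (19 and 54), no batch term 106 (23 and 83), batch 1 alone 1363 (359 and 1004), batch 2 alone 27 (9 and 18), and 2 surrogate variables 83 (28 and 55). With the TEC share as a covariate 30 were called (9 and 21), and with the choroid plexus sum 57 (16 and 41). Leaving out each replicate in turn gave 50 to 745 calls, 12 to 192 higher and 38 to 565 lower. DESeq2 size factors gave 206 calls, and leaving out libraries under 10 M counts gave 195. The replicate block, by the number in the title, gave 169 calls (42 higher, 127 lower), but same-numbered libraries did not deviate together (r from -0.29 to 0.12), so they share only a number. Interaction calls, 9 here, numbered 5 in burn and sham libraries alone, 747 without libraries under 10 M counts, and 5 to 939 with a replicate left out, with 939 without sham replicate 1 and 379 without sham replicate 7. In the frontal cortex leaving out libraries whose title names another treatment gave 32 calls, 9 of them shared. Over the named genes and all settings 1459 values kept their side of the threshold, 773 lost it and 0 changed sign. The cause of these changes was not tested. Libraries of 7.13 and 7.34 M counts limit the precision for low genes.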
